A study of Mus musculus with 6 samples.

Results

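The acrosome is a large secretory vesicle that caps the sperm head, and it carries the enzymes and binding proteins a sperm uses to pass the egg coat and fuse with the egg. It is built from the Golgi apparatus in round spermatids, after meiosis. Transcripts of several of its proteins already appear in pachytene spermatocytes, where they are stored or translated early, while others start only in haploid cells. The 10 genes described here were listed by name: Acr, Acrbp, Acrv1, Zpbp, Zpbp2, Spaca1, Crisp2, Spink2, Tex101 and Izumo1. Each was read by 1 transcript cluster (a set of probes that together read 1 transcribed region), so 10 of 10 were measured, out of 19938 genes on the array with a cluster of their own. They were chosen with earlier results of these arrays known.

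The study compared testes of knockout mice with testes of control mice, both taken at postnatal day 15, with 3 arrays of each genotype and no treatment. The sources used here do not give the strain, the way the knockout was made, the allele of the controls or whether an array holds 1 animal or a pool. The p-values therefore rest on the spread among these arrays alone, which could be technical in part. Values are RMA values on the log2 scale (background-corrected, quantile-normalised and summarised over probes), so a difference of 1 is a doubling, and differences are knockout minus control from limma across 21789 clusters with Benjamini-Hochberg adjustment.

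The arrays had the markers of the labelled tissue. All 5 germ cell markers, including Ddx4 and Dazl, lay above the median of all tested clusters (8.54), as did all 6 measured Sertoli cell markers and all 4 measured Leydig cell markers. Of 7 spermatid markers 5, among them Tnp1, Odf1 and Akap4, lay near background and 0 lay above that median. The others, Prm2 (8.125) and Prm1 (7.99), lay in between. Haploid germ cells are known to be few or absent at this age. An array holds RNA of the whole testis, so fewer cells of a type and less RNA per cell cannot be told apart. A pair of control arrays stood apart in ways that touch the results. Control replicate 1 was low in spermatocyte markers, and control replicate 3 was high in some genes of the epididymis (3 of 6 markers), and both are set beside the results they touch.

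The 10 genes fell into 3 classes by their mean over all 6 arrays. The yardstick for background was the 1035 clusters of olfactory receptor genes, whose 95th percentile was 7.19. Tex101 (11.89), Crisp2 (9.30), Acrbp (8.87) and Zpbp (8.67) lay above the median of tested clusters and are called on. Acr (8.42), Spink2 (7.93), Spaca1 (7.89) and Zpbp2 (7.65) lay between the background line and that median and are called intermediate. The spermatid markers Prm2 (8.125) and Prm1 (7.99) fell in the same band. An intermediate level alone thus does not show that a gene was expressed at this age. Izumo1 (6.69) and Acrv1 (5.51) lay under the background line. Probe sets differ in brightness, so these levels place each gene against background and do not rank the genes in transcript number.

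**Figure D1:**
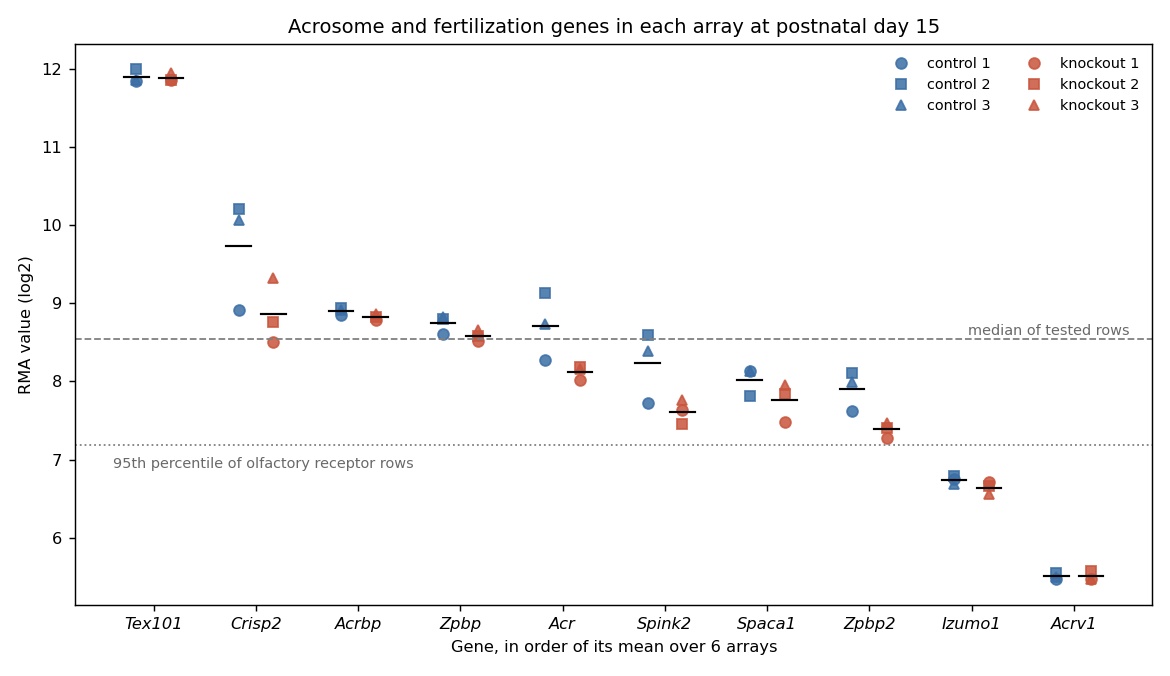
Value of each gene in each array (log2 RMA value, y axis), for genes in order of their mean (x axis). Blue symbols are the 3 control and red symbols the 3 knockout arrays, with the replicate number given by the shape, short black lines are group means, the dashed line is the median of tested clusters (8.54) and the dotted line the 95th percentile of olfactory receptor clusters (7.19). Control replicate 1 (blue circles) lies near the knockout arrays in Crisp2 and Spink2, while Tex101 and Acrv1 have nearly equal means in both genotypes.

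In the knockout 9 of the 10 genes had a lower mean than in control and 1, Acrv1, a mean higher by 0.0033, with a median difference of -0.21 on the log2 scale. Over all tested clusters 47% had a lower mean in the knockout, and the median difference was 0.0033. No member passed an adjusted p of 0.05 (0 of 10, against 0.0138% of all tested clusters, 3 in number), and the smallest adjusted p was 0.303 for Zpbp2. At an unadjusted p under 0.05 there were 4 members lower, Crisp2, Spink2, Acr and Zpbp2, and 0 higher, where 6.45% of all clusters were lower and 4.1% higher. All knockout arrays lay below all control arrays in 2 members, Acr and Zpbp2 and 0 members had them all above, which was so in 8.6% and 6.73% of all clusters.

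**Figure D2:**
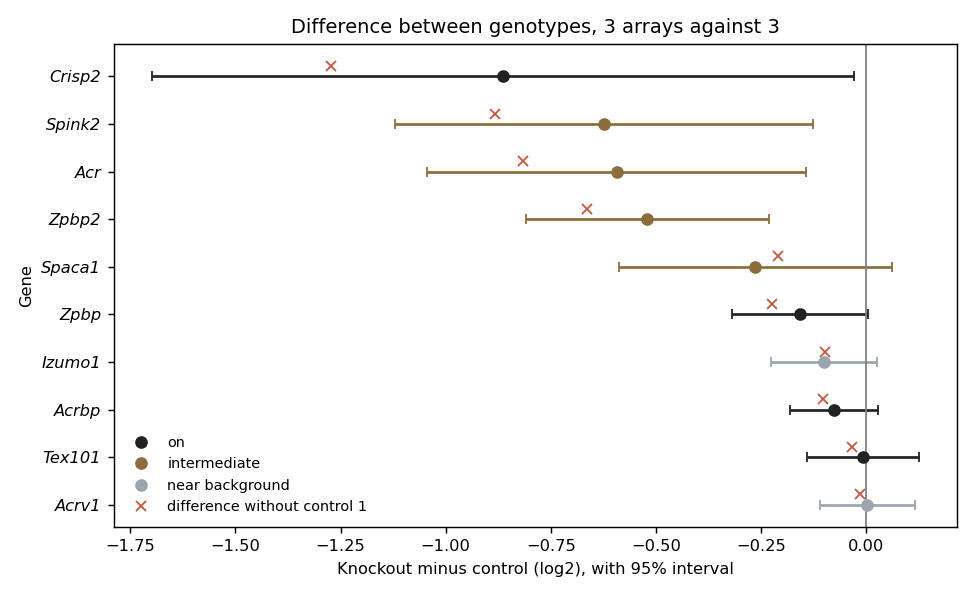
Knockout minus control (log2, x axis) for each gene (y axis), with points for the difference over 3 against 3 arrays and bars for its 95% interval, coloured by level class; red crosses give the difference without control replicate 1. Crisp2, Spink2, Acr and Zpbp2 have intervals below 0, and the crosses of these 4 lie further from 0 than their points.

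Start regions were available for 9 of the 10 genes, in 12 windows of 300 bases (250 before and 50 after an annotated start) from RefSeq, build GRCm38.p6. They were searched on both strands for TGACG, the core of the cyclic AMP response element that CREM, an activator of haploid genes, binds, and for its full form TGACGTCA. The 150 bases before the start are shown for the 4 genes that hold the core, with the core in capitals in either orientation and with the full form in capitals for Izumo1. Zpbp2 (chr11:98550947-98551096, plus strand), Spaca1 (chr4:34050066-34050215, minus strand, 1 of 2 starts), Acrbp (chr6:125049777-125049926, plus strand) and Izumo1 (chr7:45621661-45621810, plus strand) read as follows.
Zpbp2: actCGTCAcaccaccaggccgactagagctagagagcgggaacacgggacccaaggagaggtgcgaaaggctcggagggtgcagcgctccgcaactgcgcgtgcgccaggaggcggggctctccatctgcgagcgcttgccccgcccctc
Spaca1: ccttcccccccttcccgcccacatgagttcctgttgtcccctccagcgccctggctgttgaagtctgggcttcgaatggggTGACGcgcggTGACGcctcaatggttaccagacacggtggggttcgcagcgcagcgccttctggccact
Acrbp: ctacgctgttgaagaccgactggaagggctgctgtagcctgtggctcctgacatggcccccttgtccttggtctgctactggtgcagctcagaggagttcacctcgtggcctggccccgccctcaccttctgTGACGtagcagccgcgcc
Izumo1: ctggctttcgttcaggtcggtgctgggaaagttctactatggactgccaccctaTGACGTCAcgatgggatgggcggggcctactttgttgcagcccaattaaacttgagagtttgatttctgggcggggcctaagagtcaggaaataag

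The full element was found in 1 gene, Izumo1, from 96 bases before its start, and in 1.79% of 32851 promoter windows of the genome. The core was found in 4 of the 9 genes, or 5 of the 12 member windows, and in 20.8% of all windows. It began 147 bases before the start in Zpbp2, 69 and 59 bases in Spaca1 and 18 bases in Acrbp. These 4 genes span the level classes, with differences between genotypes of -0.52 (Zpbp2), -0.26 (Spaca1), -0.08 (Acrbp) and -0.10 (Izumo1). Of the other searched motifs the MYB core AACNG was in 8 of 9 genes (11 of 12 member windows) and 80.3% of all windows. GTTGCC, a part of the X-box that RFX factors bind, was in Acrbp (1 of 12 member windows) and 12.5% of all. TATAAA was in Crisp2 (1 of 12) and 13.6%. Matches of letters are a description, not binding sites, and arrays do not measure promoters.

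A pair of further start regions is shown for the gene with the largest difference and for the dimmest one. Crisp2 (chr17:40794147-40794296, minus strand) has TATAAA in capitals, in either orientation, from 118 and 97 bases before its start. Acrv1 (chr9:36693070-36693219, plus strand) has GTGTGT in capitals, here on the opposite strand as ACACAC, from 139 and 127 bases before its start (a further match, 184 bases before it, lies outside the stretch shown). In this gene GTGTGT is known as a site of TDP-43, a protein that holds the Acrv1 promoter silent in spermatocytes. The motif GTGTGT was added to the search after the levels were known, and 17.4% of all windows hold it. Of the 12 member windows 2 hold it, that of Acrv1 and 1 of Spink2.
Crisp2: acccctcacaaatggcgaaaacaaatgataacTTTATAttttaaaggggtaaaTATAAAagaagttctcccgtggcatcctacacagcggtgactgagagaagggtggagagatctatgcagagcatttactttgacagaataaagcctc
Acrv1: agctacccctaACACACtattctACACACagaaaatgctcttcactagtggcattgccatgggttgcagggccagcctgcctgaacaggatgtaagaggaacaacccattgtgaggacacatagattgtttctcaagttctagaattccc

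Acr, Spink2 and Acrbp encode acrosin and proteins that restrain it, and all 3 had a lower mean in the knockout. Acr encodes acrosin, the serine protease of the acrosome. Its values were 8.27, 9.13 and 8.74 in control replicates 1 to 3 and 8.02, 8.18 and 8.16 in knockout replicates 1 to 3. Every knockout array lay below every control array, with control replicate 1 the nearest. The means were 8.71 ± 0.43 and 8.12 ± 0.087 (SD, n = 3 each), a difference of -0.59 (95% interval -1.04 to -0.14, limma adjusted p = 0.380), or 0.663 of the control level. The control arrays varied more than the knockout arrays, and the SD of the controls was higher than in 99.4% of tested clusters.

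Spink2 encodes a Kazal-type protease inhibitor that protects the forming acrosome from proteases such as acrosin. Its values were 7.72, 8.60 and 8.39 in control replicates 1 to 3 and 7.63, 7.45 and 7.76 in knockout replicates 1 to 3. Control replicate 1 lay below knockout replicate 3, so the groups overlapped, while control replicates 2 and 3 lay above all knockout arrays. The means were 8.24 ± 0.46 and 7.61 ± 0.16 (SD, n = 3 each), a difference of -0.62 (95% interval -1.12 to -0.13, limma adjusted p = 0.390), or 0.649 of the control level.

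Acrbp encodes the protein that binds proacrosin and keeps it packed and inactive in the acrosome until release. Its values stayed close together, at 8.85, 8.94 and 8.92 in control replicates 1 to 3 and 8.79, 8.83 and 8.86 in knockout replicates 1 to 3. The groups overlapped by 0.01, with knockout replicate 3 above control replicate 1. The difference was -0.08 (95% interval -0.18 to 0.03, limma adjusted p = 0.589). Its interval overlaps that of Acr, and the difference between them was not tested.

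The paralogs Zpbp and Zpbp2 encode zona pellucida binding proteins of the acrosomal matrix that are needed for the shape of the acrosome. Zpbp2 read 7.62, 8.11 and 7.99 in control replicates 1 to 3 and 7.28, 7.41 and 7.47 in knockout replicates 1 to 3. All knockout arrays were lower than all control arrays. Its difference was -0.52 (7.91 ± 0.26 against 7.39 ± 0.097, SD, n = 3 each, 95% interval -0.81 to -0.23, limma adjusted p = 0.303), or 0.697 of the control level. Zpbp read 8.61, 8.80 and 8.82 in control replicates 1 to 3 and 8.52, 8.58 and 8.66 in knockout replicates 1 to 3. Here knockout replicate 3 lay above control replicate 1, and the difference was -0.16 (95% interval -0.32 to 0.0051, limma adjusted p = 0.482).

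The 2 paralogs were also compared within each array. The value of Zpbp2 minus that of Zpbp was -0.99, -0.69 and -0.83 in control replicates 1 to 3 and -1.24, -1.17 and -1.19 in knockout replicates 1 to 3. The groups did not overlap, and this quantity was 0.36 lower in the knockout (-0.84 ± 0.15 against -1.20 ± 0.036, SD, n = 3 each). The exact permutation p was 0.1, two-sided, which is the smallest that 3 against 3 arrays allow. The pair was chosen for this comparison after its values were seen.

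Spaca1 encodes a protein of the inner acrosomal membrane without which the acrosome does not form properly. Its values were 8.13, 7.81 and 8.13 in control replicates 1 to 3 and 7.48, 7.84 and 7.96 in knockout replicates 1 to 3. Here control replicate 2 was the lowest control and lay below knockout replicates 2 and 3, unlike in Acr, Spink2 and Zpbp2, where control replicate 2 was the highest. The difference was -0.26 (95% interval -0.59 to 0.06, limma adjusted p = 0.549), and -0.12 without knockout replicate 1.

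Crisp2 encodes a cysteine-rich secretory protein that is found in the acrosome and along the sperm tail, and it had the largest difference of the 10 genes. Its values were 8.91, 10.21 and 10.06 in control replicates 1 to 3 and 8.51, 8.76 and 9.32 in knockout replicates 1 to 3. Control replicate 1 lay below knockout replicate 3, and control replicates 2 and 3 lay above every knockout array. The means were 9.73 ± 0.71 and 8.86 ± 0.41 (SD, n = 3 each), a difference of -0.86 (95% interval -1.70 to -0.03, limma adjusted p = 0.456), or 0.550 of the control level. The SD of its control arrays was higher than in 99.9% of tested clusters. The related genes Crisp3 and Crisp4 lay near background at 3.24 and 4.13, with differences of 0.02 and 0.03.

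Tex101 encodes a glycosylphosphatidylinositol-anchored protein of the germ cell surface, needed for the maturation of sperm surface proteins. It was the member furthest above background, higher in level than 97.5% of tested clusters. Its values were 11.84, 11.99 and 11.85 in control replicates 1 to 3 and 11.86, 11.85 and 11.95 in knockout replicates 1 to 3. The groups overlapped throughout, with a difference of -0.0067 (95% interval -0.14 to 0.13, limma adjusted p = 0.980). The sign of this difference turned when control replicate 2 was left out (0.04) and when each array was set to its own median (0.01).

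Izumo1, which encodes the sperm protein that binds the egg receptor JUNO before fusion, read 6.75, 6.79 and 6.69 in control replicates 1 to 3 and 6.71, 6.66 and 6.56 in knockout replicates 1 to 3. The difference was -0.10 (95% interval -0.23 to 0.03, limma adjusted p = 0.554), and -0.058 without knockout replicate 3. Acrv1, which encodes the acrosomal matrix protein SP-10 of round spermatids, read 5.47, 5.55 and 5.50 in control replicates 1 to 3 and 5.47, 5.58 and 5.48 in knockout replicates 1 to 3. Its groups overlapped, and the difference was 0.0033 (95% interval -0.11 to 0.12, limma adjusted p = 0.987). At these levels RMA compresses differences, so a change of either transcript could hardly be seen.

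By class, the 4 genes that were on had a median difference of -0.12 and ranged from -0.86 (Crisp2) to -0.0067 (Tex101). The 4 intermediate genes had a median of -0.56 and ranged from -0.62 (Spink2) to -0.26 (Spaca1). The 2 genes near background had a median of -0.05. Over all tested clusters the medians of the same classes were 0, 0.0067 and 0.013. The differences of the members thus did not follow their level, since the on genes held both the largest difference and one of the smallest. With near background drawn at the 99th percentile of the olfactory receptor clusters (8.07), that class held 5 of the members and its median was -0.26. The classes use arrays of both genotypes, so a genotype difference can move a gene between them. With on set by the control mean alone, Acr (8.71 in control) joined that class. It then held 5 members with a median of -0.16.

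The spread among control arrays ran through several members at once. As deviations from each gene's control mean, averaged over the 10 genes, the control arrays stood at -0.22, 0.15 and 0.07 (replicates 1 to 3). The knockout arrays stood at -0.41, -0.33 and -0.22. Control replicate 1 therefore lay level with knockout replicate 3. The 4 intermediate genes alone gave -0.28 in control replicate 1 and -0.62, -0.50 and -0.38 in the knockout arrays, which left the groups apart. Of the 7 spermatocyte markers Ldhc (-0.75), Tcp11 (-0.74) and Piwil1 (-0.67) differed most, and Mybl1 (-0.06) and Pgk2 (-0.04, near background) least. All 7 had a lower mean in the knockout, 2 (Tcp11 and Ccna1) without overlap, and 0 passed the adjusted threshold. Over all clusters 47% had a lower mean and 8.6% were lower without overlap. Their mean level was 9.36, 9.85 and 9.76 in control replicates 1 to 3 and ranged from 9.19 to 9.40 in the knockout arrays. Of 5 germ cell markers 4 had a lower mean in the knockout, 3 of them (Sycp3, Tex14 and Ddx4) without overlap, with a mean level of 11.66 in each control array and 11.52 to 11.64 in the knockout arrays. All 4 measured Leydig cell markers and all 4 macrophage markers had a higher mean in the knockout, with median differences of 0.38 and 0.12. In each list 1 marker (Cyp11a1 and Adgre1) was higher without overlap, as were 6.73% of all clusters. Among the Leydig cell markers, Cyp17a1 (0.39) read 9.93 in control replicate 3 and 10.98 to 11.40 in the other arrays. Star (0.45) read 10.79 in knockout replicate 3 and 9.41 to 9.92 in the others. Each of these differences thus rests largely on 1 array. A lower mean was found in 1 of 6 Sertoli cell, 3 of 4 peritubular myoid cell and 3 of 7 spermatid markers. Their median differences were 0.06, -0.02 and 0.01. So it was in 0 of 2 erythrocyte and 4 of 6 epididymis markers, with medians of 0.20 and -0.08. In the Sertoli cell list Wt1 and in the erythrocyte list Alas2 were also higher without overlap. In each of these lists 0 markers passed the adjusted threshold. The part of the makeup of cells in the differences of the members was not tested.

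**Figure D3:**
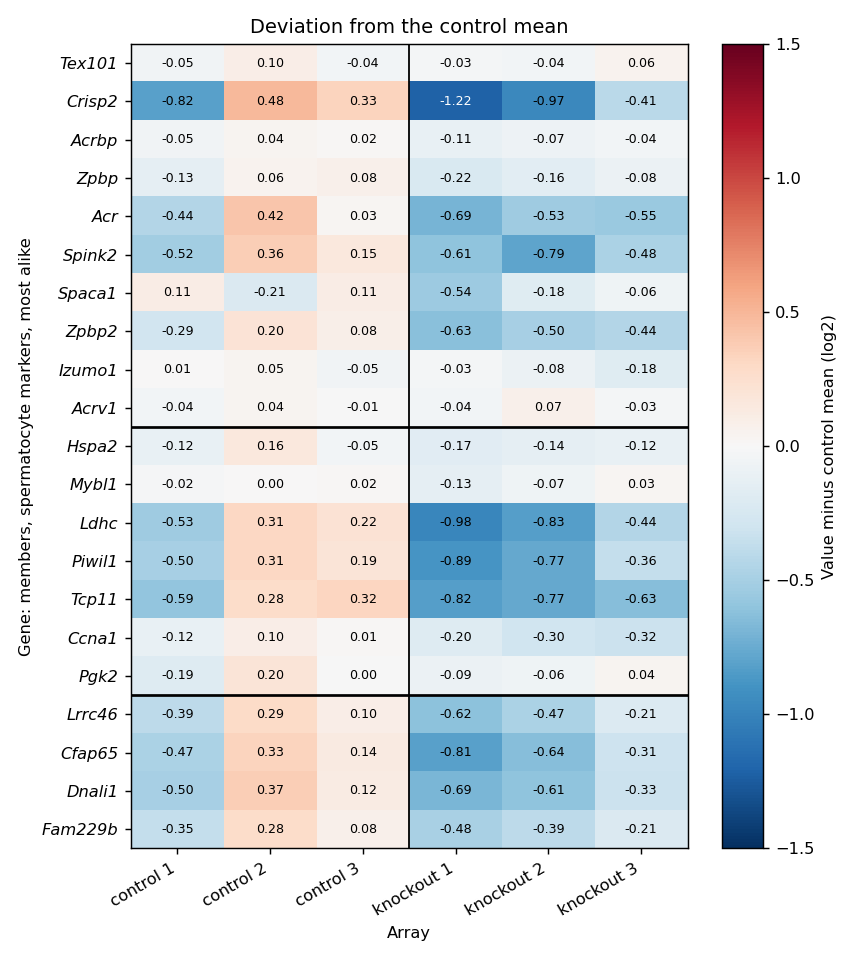
Value of each gene in each array minus that gene's control mean (log2, colour and printed number), for the 10 members (top), the 7 spermatocyte markers (middle) and 4 of the 5 genes most like the mean of the on members (bottom; the other, Piwil1, is among the markers). Crisp2, Acr, Spink2 and Zpbp2 are low in control replicate 1 and in all knockout arrays, as are Ldhc, Piwil1 and Tcp11, while Tex101, Izumo1 and Acrv1 lie at most 0.18 from the control mean.

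Control replicate 1 was the lowest control in the 4 genes with the largest differences. Leaving out control replicate 1 therefore had to enlarge these differences. Without it Zpbp2 differed by -0.66 (SE 0.074, limma adjusted p = 0.0458), the 1 member to pass in any of the alternative fits, at a setting where 52 clusters (0.239%) passed. Crisp2 then differed by -1.27 (limma adjusted p = 0.103), Spink2 by -0.88 (limma adjusted p = 0.0553) and Acr by -0.82 (limma adjusted p = 0.0824). Leaving out control replicate 2 brought the same genes to -0.62, -0.44 and -0.38, and Zpbp2 to -0.42. Over 12 alternative fits the adjusted p of Zpbp2 ranged from 0.0458 to 0.648, that of Acr from 0.0824 to 0.690, that of Spink2 from 0.0553 to 0.689 and that of Crisp2 from 0.103 to 0.727.

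Some genes of the epididymis, the duct that leads from the testis, were highest in control replicate 3. All 6 measured epididymis markers lay near background by their mean over the arrays, with a mean level of 5.83 in control replicate 3 against 5.46 in control replicates 1 and 2 and 5.39 to 5.50 in the knockout arrays. Of the 6 markers 3 were highest there: Adam7 read 6.51 (at most 5.42 elsewhere), Lcn5 7.48 (at most 6.93) and Rnase9 5.16 (at most 4.70). The other 3 were not, with Lcn8 at 6.18, Spag11b at 5.67 and Crisp4 at 3.99, the last its lowest value in any array. Control replicate 3 was the highest control in 1 member, Zpbp (8.82 against 8.80), and level with control replicate 1 in Spaca1. Without control replicate 3 the differences of Crisp2, Acr, Spink2 and Zpbp2 were -0.70, -0.58, -0.55 and -0.48.

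Genes whose values over the 6 arrays were most like the mean of the 4 on members were sought among 284 clusters above the median level with an SD over arrays of at least 0.2. Of those 4 members Crisp2 varied most, with an SD over arrays of 0.70 against 0.12 (Zpbp), 0.064 (Tex101) and 0.056 (Acrbp). Likeness to their mean is thus largely likeness to Crisp2. The 5 most alike were Lrrc46 (Pearson r = 0.997), Cfap65 (0.995), Piwil1 (0.992), Dnali1 (0.989) and Fam229b (0.988), given as a description over 6 arrays that share the genotype difference. Lrrc46 and Cfap65 encode proteins of the sperm tail, Dnali1 a light intermediate chain of axonemal dynein and Piwil1 a PIWI protein of spermatocytes. Their differences between genotypes ranged from -0.67 (Piwil1) to -0.36 (Fam229b), and 0 of the 5 passed the adjusted threshold. Lrrc46, the most alike, read 9.98, 10.66 and 10.47 in control replicates 1 to 3 and 9.75, 9.90 and 10.16 in knockout replicates 1 to 3.

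Other genes of the pathway were taken from a list of 65, of which 61 were measured. In the knockout 31 had a lower mean, 29 a higher mean and 1 an equal one, with a median difference of -0.01, and 0 passed the adjusted threshold (smallest adjusted p 0.320). At an unadjusted p under 0.05 there were 7 lower and 3 higher, against 6.45% and 4.1% of all clusters. Of the 61 genes, 27 lay near background, 11 were intermediate and 23 were on, so many of them could hardly show a difference at this age. The 23 that were on had a median difference of -0.03, with 17 below and 6 above the control mean, and the 11 intermediate genes one of 0.03.

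Among 21 genes of acrosome biogenesis 15 had a lower and 6 a higher mean in the knockout. In 6 of the 21 all knockout arrays lay below all control arrays, and in 0 above, against 8.6% and 6.73% of all clusters. Dpy19l2, which encodes the inner nuclear membrane protein that anchors the acrosome to the nucleus, read 7.73, 8.33 and 8.42 in control replicates 1 to 3 and 7.38, 7.47 and 7.66 in knockout replicates 1 to 3. The groups did not overlap, and the difference was -0.66 (SE 0.18, limma adjusted p = 0.342). Without control replicate 1 it was -0.87 (limma adjusted p = 0.0343), at a setting where 0.239% of all clusters passed. Without control replicates 2 and 3 it was -0.57 and -0.53 (limma adjusted p = 0.579 and 0.417). Rimbp3, which encodes a protein of the spermatid manchette, differed by -0.20 near background. Genes of vesicle traffic that other tissues use too, such as Gopc (-0.13), Pick1 (-0.05) and Smap2 (-0.08), were on and differed by less. Gopc and Pick1 were lower without overlap.

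Among 16 genes of the acrosomal matrix, its proteases and hyaluronidases 5 had a lower and 11 a higher mean. Tmprss12, which encodes a membrane-bound serine protease of the testis, read 8.58, 9.14 and 8.95 in control replicates 1 to 3 and 8.28, 8.33 and 8.44 in knockout replicates 1 to 3. Its groups did not overlap, its difference was -0.54 (SE 0.13, limma adjusted p = 0.320), and without control replicate 1 it was -0.70 (limma adjusted p = 0.0466). Without control replicates 2 and 3 it was -0.415 and -0.51 (limma adjusted p = 0.556 and 0.399). Spam1, a sperm hyaluronidase gene, was 0.26 higher at a level of 3.76, far under the background line, and 0.17 higher without control replicate 3.

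Among 11 measured genes of gamete binding and fusion 3 had a lower mean, 7 a higher and 1 an equal one. Lypd4, which encodes a glycosylphosphatidylinositol-anchored sperm protein needed for fertility, read 8.59, 9.41 and 9.06 in control replicates 1 to 3 and 8.41, 8.55 and 8.72 in knockout replicates 1 to 3. Control replicate 1 lay among the knockout arrays and the difference was -0.46 (SE 0.19, limma adjusted p = 0.464). It was -0.675 without control replicate 1 and -0.265 without control replicate 2. Spaca6, a gene of the sperm fusion machinery, was 0.13 higher (SE 0.054, limma adjusted p = 0.449) without overlap, and 0.087 higher without control replicate 2. Of 8 measured genes that mature the sperm surface, Clgn, the endoplasmic reticulum chaperone calmegin, differed by -0.31 (SE 0.14, limma adjusted p = 0.497). Its difference was -0.44 without control replicate 1 and -0.17 without control replicate 2. Pdilt, a testis chaperone, differed by -0.07 near background, and by -0.042 and -0.10 without control replicates 2 and 3. All 5 measured relatives of the members, from the Crisp and Spink families, lay near background, and the smallest p-values among them were those of Spink1 (-0.09, and -0.145 to -0.05 with single arrays left out) and Spink10 (-0.12, and -0.023 without control replicate 3).

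**Figure D4:**
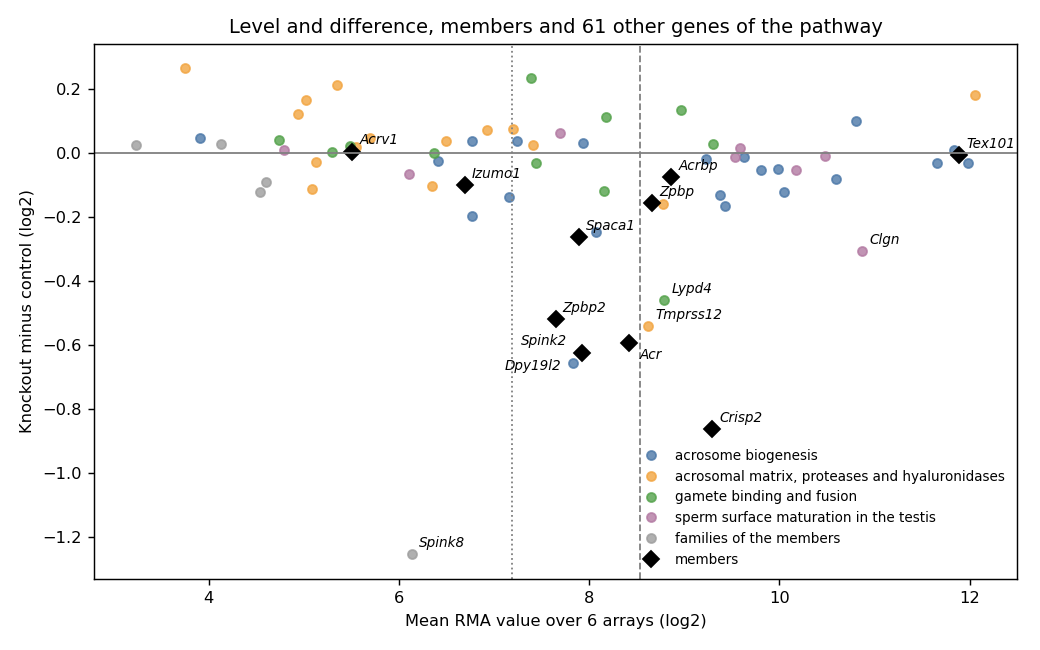
Knockout minus control (log2, y axis) against the mean value over 6 arrays (log2, x axis) for the 10 members (black diamonds) and 61 other genes of the pathway, coloured by role; the dotted line is the 95th percentile of olfactory receptor clusters (7.19) and the dashed line the median of tested clusters (8.54). Dpy19l2, Tmprss12, Lypd4 and Clgn lie with the low members, most other genes lie near 0 at every level, and Spink8 lies at -1.25 through its value in control replicate 3.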

How the data were processed

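Total RNA of testes was hybridised to 6 arrays, 3 per genotype. Processing by the authors was RMA in Affymetrix Expression Console, per the submitters' processing notes. The sources used here give no versions, probe annotation or build. The deposited values are on the log2 scale, from 2.19 to 14.02. Of 35556 clusters, the 21789 that the platform annotation pairs with 1 symbol were tested, and 13767 with several or none were left out. At most 4.12% of values were identical between any arrays.

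The genotypes were compared with limma 3.58.1 (lmFit and eBayes without covariates) in R 4.3.3, and p-values were adjusted by Benjamini and Hochberg over all tested clusters, at a threshold of 0.05. The procedure was tested on simulated data. The number of arrays limits the precision. Alternatives were a replicate block, all clusters, dim clusters left out, a trended robust prior, median centring, array weights, each array left out in turn and other class limits.

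The text names all members, the 2 genes of smallest p per role of the pathway list and the 5 clusters most like the on members. Other genes were named after their values were seen. Members and lists were chosen with earlier results of these data known. The targeted gene is not reported here.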

Additional observations from a re-analysis of the deposited data

How the results depend on the processing

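The labels state no pairing by replicate number. Deviations of same-numbered arrays correlated at 0.166, -0.0536 and 0.17, which cannot settle whether arrays were paired. With the replicate number as a block 0 members and 0 of all clusters passed, against 3 clusters without it. The unadjusted limma p with the block was 0.00077 for Zpbp2 (0.0036 without it), 0.0050 for Acr (0.017) and 0.0054 for Crisp2 (0.044). It was higher with the block for Acrbp (0.146 against 0.128) and Tex101 (0.918 against 0.910). The count of all clusters was 0 with all rows tested, 6 with dim clusters left out and 7 with a trended robust prior. Leaving out single arrays gave 0 to 52 clusters, 0 to 1 members (Zpbp2) and 0 to 2 pathway genes (Dpy19l2 and Tmprss12), the highest each without control replicate 1. Other settings left 0 members and 0 pathway genes past the threshold. The median of the members near background was -0.26 with the 99th percentile as the limit, which drew in 3 more genes. Every member except Tex101 and Acrv1 stayed below its control mean in every fit made. Tex101 differed by 0.013 with median centring, 0.0031 with array weights and -0.038 to 0.042 with single arrays left out, and Acrv1 by -0.032 to 0.025. Izumo1 and Acrv1 were not in the fit without dim clusters. Low signal limits what can be said of them, and 3 arrays per group limit all differences. Centring moved the median of all clusters by 0.02.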

Other observations

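Genes that stood out in a single array were counted as clusters at least 1 above every other array on the log2 scale. There were 17 in control replicate 3, 3 in knockout replicate 3 and 0 in each of the other arrays. Those of control replicate 3 were led by Spink8, a relative of Spink2, which read 9.31 there and 5.38 to 5.60 in the other 5 arrays. After it came Serpina1f (2.13 above the next array), Cuzd1 (1.80), Spink11 (1.78), the defensin gene Defb42 (1.71), the carboxylesterase gene Ces5a (1.68) and Cd52 (1.56). The defensins Defb23, Defb37 and Defb11 and the epididymis marker Adam7 were among the 17. The rest were Rnase12, Ly6f, BC018473 and the olfactory receptor clusters Olfr873, Olfr39 and Olfr872. Olfr872 read 10.12 there, though olfactory receptor clusters served as the background yardstick. Spink8 is near background in the other arrays, and its difference of -1.25 between genotypes comes from 1 control array (limma adjusted p = 0.696).

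The 3 clusters of knockout replicate 3 were the serpin gene Serpina3a (1.87 above the next array) and the nuclear receptor genes Nr4a1 (1.78) and Nr4a2 (1.36). Star, which moves cholesterol into mitochondria for steroid synthesis, read 10.79 in that array and 9.41 to 9.92 in the others. In this array 7 of the 10 acrosome and fertilization genes had their highest knockout value, Crisp2 (9.32) and Spaca1 (7.96) among them, while Izumo1 (6.56) had its lowest.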
